A study of Mus musculus with 6 samples.

Results

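The 35 genes described here encode the chaperones and folding enzymes of the endoplasmic reticulum (ER), the sensors and factors of the unfolded protein response, and the machinery that degrades misfolded ER proteins. They were taken by gene symbol from a list, 35 of the 55487 genes in the deposited table, and all 35 were found. 1 symbol, Ddit3, stood for more than 1 gene identifier, and the identifier with the highest summed count was used. By role they fell into 15 chaperones and folding enzymes, 8 genes of the PERK and ATF4 branch, 8 genes of ER-associated degradation, 3 genes of the IRE1 and ATF6 branches, and the translocon subunit Sec61b. Of the 35, 34 passed the filter on low counts, and Derl3, a degradation factor of secretory cells, did not, with 0 to 12 reads per library.

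Proteins that enter the ER are folded by the Hsp70 chaperone BiP (gene Hspa5), by the lectins calnexin and calreticulin and by disulfide isomerases. When unfolded chains accumulate, BiP leaves 3 membrane sensors, IRE1 (Ern1), PERK (Eif2ak3) and ATF6. IRE1 splices Xbp1 messenger RNA, ATF6 is cut to release a transcription factor, and PERK phosphorylates the initiation factor eIF2 alpha, which slows translation and favours that of ATF4. Smooth muscle cells of the aorta make contractile protein as well as collagen and elastin, so their ER handles secreted matrix. The sensors are switched on after translation and Xbp1 by splicing, neither of which a count of reads per gene measures.

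The promoters of several members share short elements. These elements are known from genes of this response, so finding them among genes listed for it is no independent result. RefSeq promoters of build GRCm38.p6, from 250 bases before to 50 bases after the start site, matched 30 of the 35 symbols, with none matched for Hyou1, Manf, Ppp1r15b, Derl1 and Atf6. The ER stress response element was searched on both strands as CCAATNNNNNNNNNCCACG, where NF-Y binds the first part and ATF6 the last. It stood in 9 of the 30 (30%), against 39 of all 32851 promoters in the table (0.119%). The first share counts genes and the second counts promoters. The 9 were 7 chaperone genes and the degradation genes Syvn1 and Derl3, with none in the PERK and ATF4 branch. The matches are printed with 5 bases on either side, 5′ to 3′ on the strand of the gene, with the element in capitals, because they show which members carry the best known binding site of this response. In Calr, Creld2, Derl3 and the second Hsp90b1 match the element runs in the reverse direction.
Hspa5, chr2:34772020-34772048, plus strand: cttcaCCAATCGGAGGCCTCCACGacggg
Hsp90b1, chr10:86705633-86705661, minus strand: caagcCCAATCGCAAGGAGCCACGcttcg
Hsp90b1, chr10:86705528-86705556, minus strand: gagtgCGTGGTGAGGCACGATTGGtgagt
Calr, chr8:84847070-84847098, minus strand: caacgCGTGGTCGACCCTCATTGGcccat
Canx, chr11:50325795-50325823, minus strand: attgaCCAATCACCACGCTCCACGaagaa
Pdia6, chr12:17266486-17266514, plus strand: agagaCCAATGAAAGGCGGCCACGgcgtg
Dnajc3, chr14:118937822-118937850, plus strand: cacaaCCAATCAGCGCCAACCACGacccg
Creld2, chr15:88819515-88819543, plus strand: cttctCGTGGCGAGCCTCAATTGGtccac
Syvn1, chr19:6046527-6046555, plus strand: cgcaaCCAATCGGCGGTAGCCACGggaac
Derl3, chr10:75893237-75893265, plus strand: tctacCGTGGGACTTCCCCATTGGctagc

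A shorter form of the element, searched as ATTGGNCCACG, stood in Herpud1 and Dnajb11, against 12 of all promoters (0.0365%). The CCAAT and ATF response element of ATF4 targets, searched as TGATGNAA, stood in Asns, Chac1, Trib3 and Herpud1, that is 4 of the 30 members (13.3%) against 3.97% of all promoters. The unfolded protein response element TGACGTGG was found in 0 of the 30 members and in 0.676% of all promoters. The matches that lie before the start site are shown to give their letters and place. Those of Trib3 and Dnajb11 lie after it and are not printed. The ATF4 element stood in 3 genes of the PERK and ATF4 branch, but not in Ddit3 or Ppp1r15a. Herpud1, a degradation gene, held both this element and the short stress element. A match is a description of the letters and does not show that a factor binds there.
Herpud1, chr8:94386372-94386392, plus strand, short stress element: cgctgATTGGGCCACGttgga
Herpud1, chr8:94386312-94386329, plus strand, ATF4 element in reverse: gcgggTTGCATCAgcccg
Chac1, chr2:119351044-119351061, plus strand, ATF4 element in reverse: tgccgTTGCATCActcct
Asns, chr6:7693220-7693237, minus strand, ATF4 element: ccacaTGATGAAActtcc

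The RNA was from mouse aorta. Of the 6 libraries, 3 carried a smooth muscle specific knockout of Ogt and 3 were LoxP controls. The product of Ogt adds the sugar N-acetylglucosamine to proteins of the nucleus and cytoplasm, and the design asks which genes differ in the aorta without it. The titles name both groups with the prefix SM22, another name of transgelin, but the labels used here do not state the Cre line, the age, the sex or the number of mice behind a library. Total counts were 11845644 to 18218385 in the knockout libraries and 3038782 to 13738958 in the control libraries. Control replicate 2 was the shallowest and stood apart, with 10.2% of its counts in mitochondrial ribosomal RNA against 0.491% to 0.823% in the other 5. Results that rest on it are therefore given with and without it. Ogt itself had 93.3, 73.5 and 70.9 CPM in knockout replicates 1 to 3 and 177.4, 183.2 and 150 CPM in control replicates 1 to 3 (log2 fold change -1.10 ± 0.152 SE, edgeR adjusted p = 0.0214). This call held in 2 of the 6 edgeR fits that left out 1 library (adjusted p 0.0247 to 0.126). CPM is the read count per 1000000 after scaling of the libraries. The smooth muscle marker Acta2 was high in all libraries, with 10430 to 12690 CPM in knockout aortas and 10640 to 13390 CPM in control aortas. It does not stand for all 8 smooth muscle markers listed. All knockouts lay below all controls for 3 of the 8, Tagln among them (37.5%, against 14.8% of all genes). They lay above for 1 (12.5%, against 16.9%). In whole tissue, fewer cells of a type and less RNA per cell cannot be told apart.

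Among the listed members, a small set of chaperone and folding enzyme genes had the highest RNA levels. On the scale of FPKM, which divides by gene length, Calr averaged 141.8 in knockout and 132.2 in control aortas, P4hb 113.0 and 125.3, Pdia3 108.8 and 98.8, and Hsp90b1 71.7 and 85.8. Control replicate 2 had the lowest value of each. Calr had 150, 89.1 and 157.7 FPKM in control replicates 1 to 3 and 136.9 to 149.5 FPKM in knockouts. Pdia3 had 109.6, 67.0 and 119.8 FPKM in these controls and 105.5 to 113.7 FPKM in knockouts. For both genes the control mean lay below the knockout mean only through replicate 2. Hspa5 came next in controls with 50 FPKM, and stood at 27.5 FPKM in knockouts, below Pdia4 (43.7), Pdia6 (42.4), Canx (38.9), Dnajc3 (30.6), Derl1 (30.4), Creld2 (30.1) and Atf4 (28.2). Its place in the order is a description, since neighbours in it lay close together. Sensors were far lower, with Ern1 at 2.88 FPKM in knockouts and 4.65 in controls and Eif2ak3 at 2.99 and 4.02. The stress targets Asns, Chac1 and Trib3 lay between 0.844 and 1.52 FPKM in both groups.

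**Figure D1:**
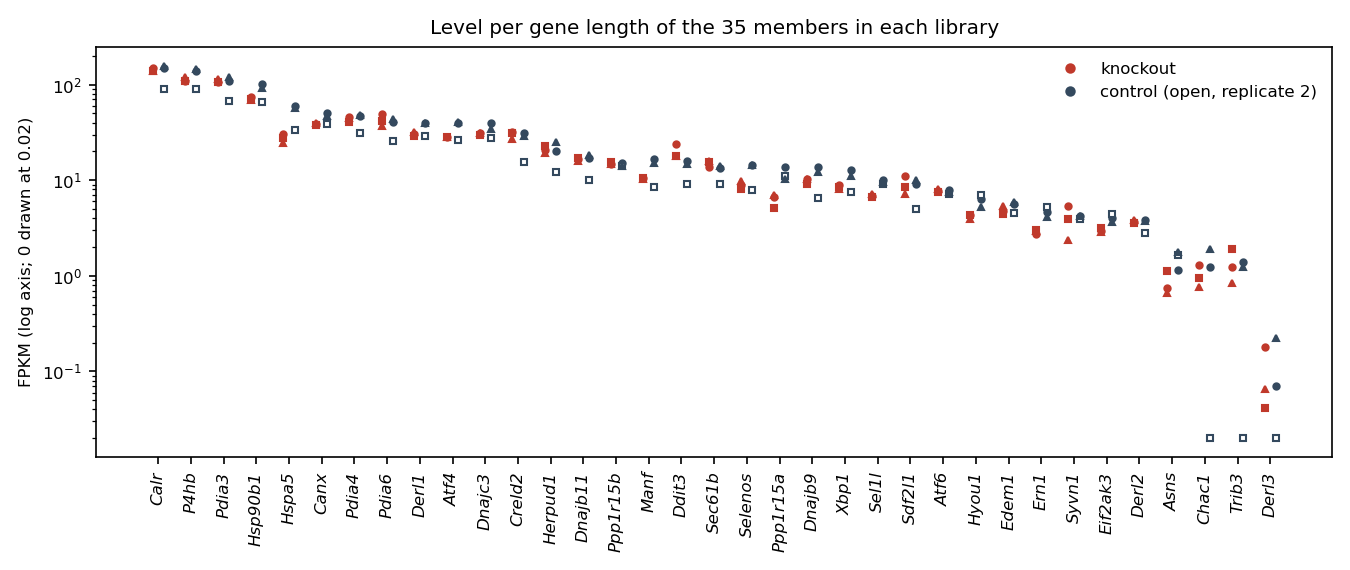
FPKM of each of the 35 members in the 3 knockout (left) and 3 control (right) libraries on a log axis, ordered by the control mean, with a value of 0 drawn at 0.02. Calr, P4hb, Pdia3 and Hsp90b1 lead in both groups, Chac1, Trib3 and Derl3 had 0 reads in control replicate 2 (open squares), and that library reads low for most chaperones.

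Across all 16139 tested genes 557 passed edgeR's quasi-likelihood test at an adjusted p under 0.05, which is 3.45%, with 1.9% higher and 1.56% lower in knockouts. Of the 34 tested members, 1 was lower and 0 were higher (2.94% and 0%), so the share of members called was near that of all genes. The member that fell was Ppp1r15a. At an unadjusted p under 0.05 there were 9 lower members (26.5%) and 1 higher member, Ddit3 (2.94%), against 11.3% and 11.5% of all genes. The median log2 fold change of the members was -0.12, against -0.01 for all tested genes, with 14 positive and 20 negative. All knockout libraries lay below all control libraries for 9 members (26.5%, against 14.8% of all genes) and above them for 3 (8.82%, against 16.9%), in all 12 members (35.3%) against 31.8%. The unadjusted threshold was passed by 22.7% of all genes in either direction.

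**Figure D2:**
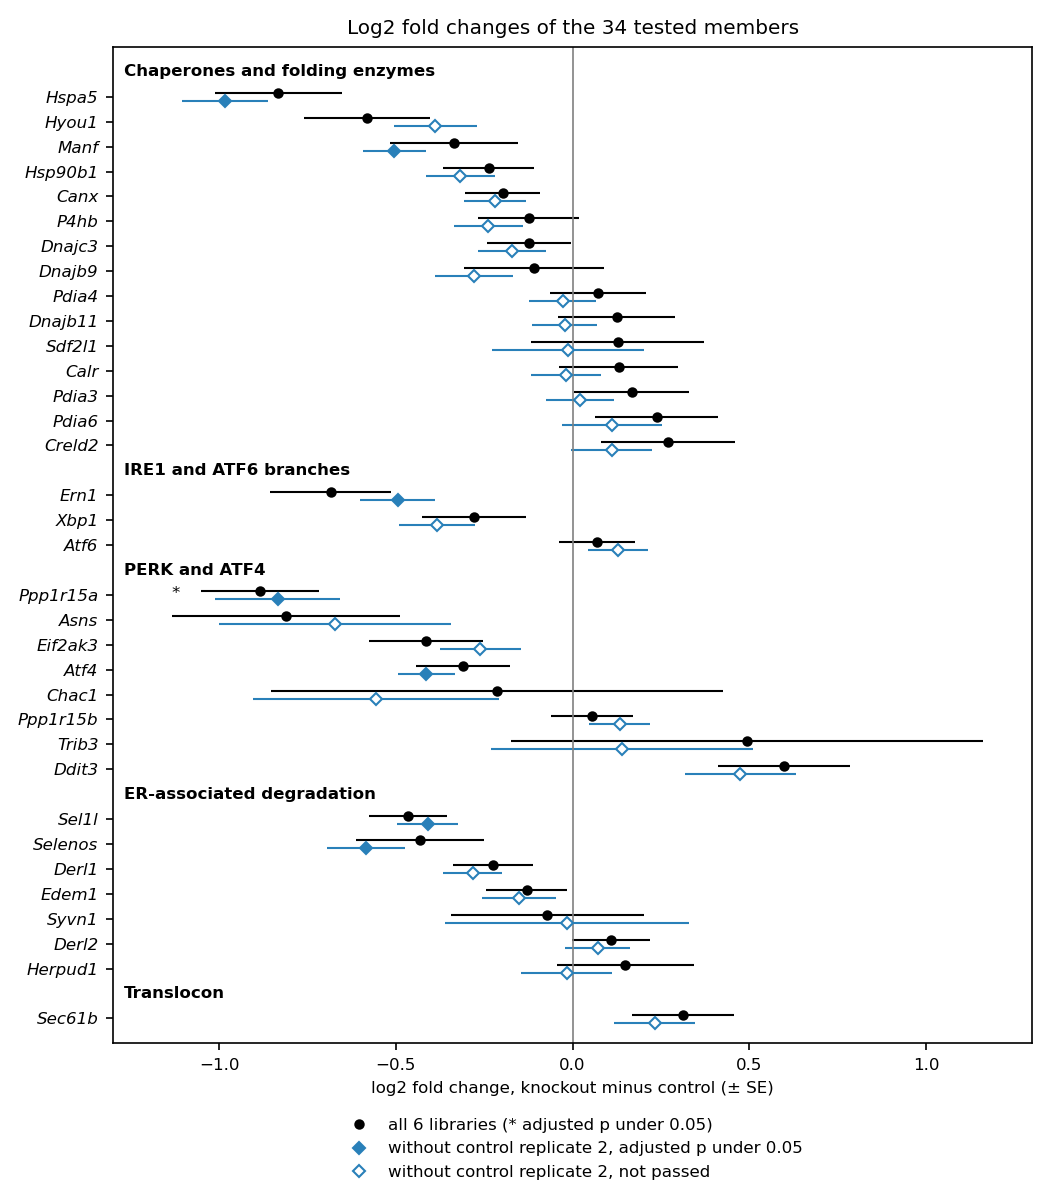
Log2 fold change, knockout minus control, with SE for the 34 tested members by role, from all 6 libraries (black circles) and without control replicate 2 (blue diamonds, filled where the adjusted p was under 0.05). Ppp1r15a passed with all libraries, and 7 members passed without control replicate 2, all of them lower.

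Among the 15 chaperones and folding enzymes 0 passed the test in edgeR with all libraries. At an unadjusted p under 0.05, 2 were lower (Hspa5 and Hyou1, 13.3%) and 0 were higher, against 11.3% and 11.5% of all genes. The median log2 fold change of the 15 was -0.11, but 0.05 without control replicate 1 and -0.17 without control replicate 2. Hspa5 (ENSMUSG00000026864, GRCm38 chromosome 2, 34771970 to 34777547) had 214.6, 194.1 and 168.1 CPM in the knockout libraries and 392.6, 262.5 and 370.4 CPM in the control libraries. Every knockout library lay below every control library, and the lowest control value was that of replicate 2. The means were 192.3 ± 23.3 CPM in knockouts and 341.8 ± 69.6 CPM in controls (SD, n = 3 each), or 56.3% of control, with a log2 fold change of -0.83 ± 0.181 (SE) and an edgeR adjusted p of 0.0532. The adjusted p lay just above the threshold in that fit, and Hspa5 passed in DESeq2 (adjusted p = 0.000971) and in limma-voom (0.049), and had adjusted p-values of 0.0197 to 0.206 in the 6 edgeR fits that each left out 1 library.

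Of the members that work with BiP in its cycle, Hyou1, Manf, Dnajb9, Dnajb11, Dnajc3 and Sdf2l1, 0 passed edgeR's test with all libraries, DESeq2 called 0, and 1 (Hyou1) was below 0.05 before adjustment. Hyou1, which renews the nucleotide bound by BiP, had 52.3, 52.6 and 46.7 CPM in the knockout libraries and 73.1, 96.0 and 59.7 CPM in the control libraries. The groups did not overlap, with control replicate 2 the highest (log2 fold change -0.58 ± 0.178 SE, edgeR adjusted p = 0.113). Manf, an ER protein that binds BiP and can be secreted, had 52.8, 53.2 and 50.9 CPM in knockouts and 77.9, 47.1 and 71.0 CPM in controls, where replicate 2 alone fell within the knockout range or below it (-0.34 ± 0.181, adjusted p = 0.318 in edgeR). The J-domain cochaperones, which stimulate BiP, stayed close to control, at -0.11 for Dnajb9, 0.12 for Dnajb11 and -0.12 for Dnajc3, and Sdf2l1, a partner of Dnajb11, was at 0.13 (edgeR adjusted p-values 0.575 to 0.797).

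Hsp90b1, the Hsp90 of the ER, had 403.7, 390.4 and 372.8 CPM in knockouts and 510.9, 401.2 and 463.2 CPM in controls, and the groups overlapped through control replicate 2 (-0.24 ± 0.129, edgeR adjusted p = 0.321). Calnexin (Canx), the membrane lectin, had 292.0 to 300.2 CPM in knockouts and 325.5 to 356.5 CPM in controls without overlap, a difference of -0.20 ± 0.107 that did not pass (edgeR adjusted p = 0.318). Its soluble counterpart calreticulin (Calr) was at 0.13 ± 0.167. The disulfide isomerases Pdia3 (0.17 ± 0.163), Pdia4 (0.07 ± 0.136), Pdia6 (0.24 ± 0.174) and P4hb (-0.12 ± 0.144), of which P4hb is also a subunit of collagen prolyl hydroxylase, had overlapping groups, as had Creld2 (0.27 ± 0.189), a secreted protein induced by ER stress. Without Hspa5 the median of the other 14 chaperone genes was -0.02, and their summed level averaged 2869 ± 63.3 CPM in knockouts and 2924 ± 400 CPM in controls (SD, n = 3 each). These sums were 2942, 2828 and 2839 CPM in knockouts and 3163, 2463 and 3147 CPM in controls, so only control replicate 2 lay below the knockouts. Without that library 7 of all 15 chaperone genes were lower at an unadjusted p under 0.05 in edgeR (46.7%, against 12.5% of all genes) and 0 were higher. All knockouts then lay below the controls left for 8 of the 15 (53.3%, against 22.4%). The 8 tested members with the full stress element in their promoter had values from -0.83 for Hspa5 to 0.27 for Creld2, 3 positive and 5 negative with a median of -0.10, and 0 of them passed edgeR's test, while 1, Hspa5, had an unadjusted p under 0.05 and passed in DESeq2. Of the 3 positive ones, without control replicate 2 Calr was at -0.02, Pdia6 at 0.11 and Creld2 at 0.11.

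**Figure D3:**
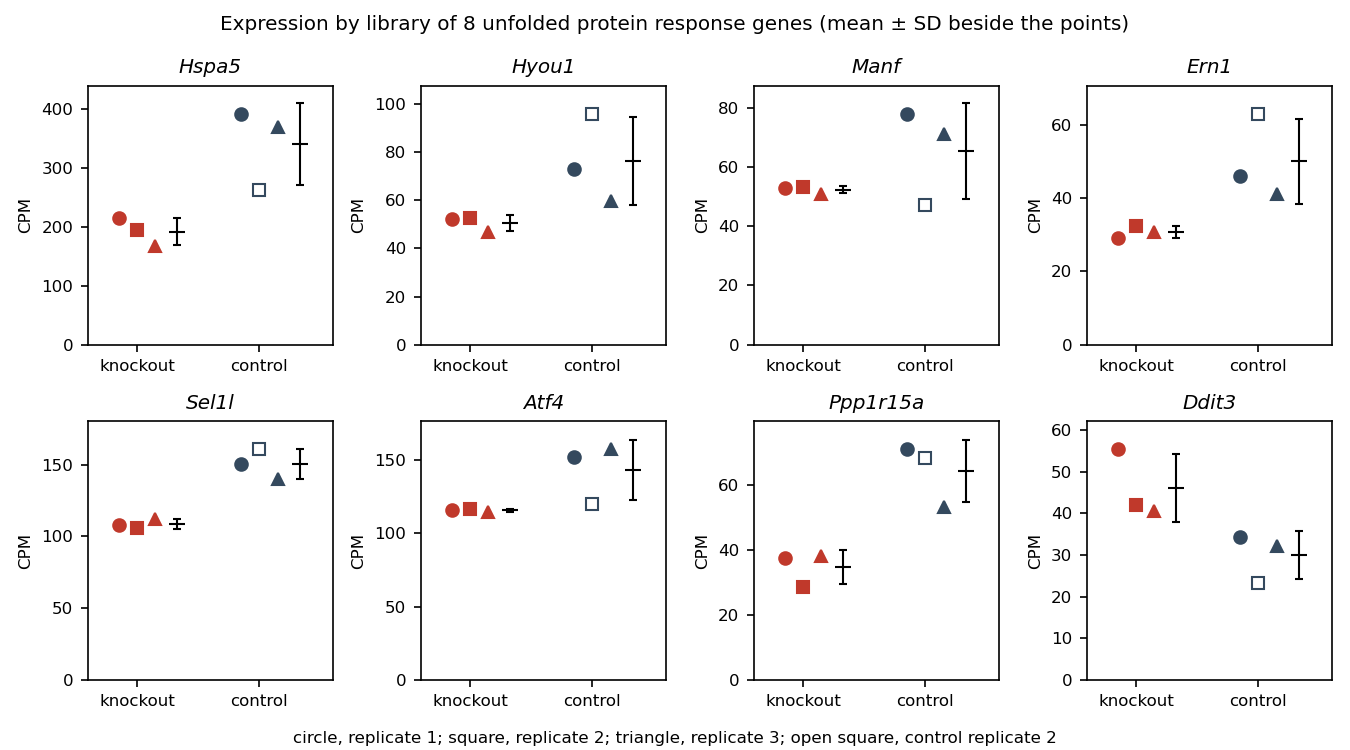
CPM in each library for 8 members, knockout at the left and control at the right of each panel, with the mean ± SD beside the points (n = 3 each). The 8 genes are a selection. Knockout and control points do not overlap for 7 of them, against 12 of all 34 tested members (35.3%) and 31.8% of all genes. Ddit3 is the 1 shown with the knockouts higher, as were Sec61b and Derl2, which are not shown. For Manf control replicate 2 (open square, 47.1 CPM) lies below the knockouts.

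Of the sensors that sit above the IRE1 and ATF6 branches, Ern1 stood out. It had 29.1, 32.4 and 30.8 CPM in knockout libraries and 46.1, 63.0 and 41.0 CPM in control libraries, without overlap and with control replicate 2 the highest (log2 fold change -0.68 ± 0.172 SE, edgeR adjusted p = 0.0726, DESeq2 adjusted p = 0.0162). Xbp1, its splicing target, averaged 46.0 ± 3.03 CPM in knockouts and 55.4 ± 9.39 CPM in controls (-0.28 ± 0.147), with overlap at control replicate 2. Atf6 stood at 73.0 ± 2.40 CPM in knockouts and 69.8 ± 4.98 CPM in controls (0.07 ± 0.107, SE). Of these 3 genes 0 passed edgeR's test, and 1 was lower at an unadjusted p under 0.05 (33.3%, against 11.3% of all genes).

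The PERK and ATF4 branch held the 1 member that fell over all genes. Ppp1r15a (ENSMUSG00000040435, GRCm38 chromosome 7, 45522916 to 45526268) encodes GADD34, the inducible subunit of the phosphatase that removes the phosphate from eIF2 alpha. It had 37.5, 28.5 and 38.0 CPM in knockout libraries and 71.0, 68.2 and 53.2 CPM in control libraries, with no overlap. The means were 34.7 ± 5.34 CPM in knockouts and 64.2 ± 9.57 CPM in controls (SD, n = 3 each), or 54.1% of control (log2 fold change -0.88 ± 0.168 SE, edgeR adjusted p = 0.0412). The call was lost without knockout replicate 1, 2 or 3 or control replicate 1, with an adjusted p of up to 0.171, and held without control replicate 2 or 3, and in these 6 edgeR fits its log2 fold change ranged from -1.01 to -0.76. Its constitutive counterpart Ppp1r15b had overlapping groups, with 91.2 to 95.5 CPM in knockouts and 81.6 to 98.6 CPM in controls (0.05 ± 0.115).

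Ddit3, which encodes the transcription factor CHOP, had its values on the other side. It had 55.5, 42.0 and 40.7 CPM in knockout libraries and 34.3, 23.4 and 32.1 CPM in control libraries, and every knockout value was above every control value (0.60 ± 0.187, edgeR adjusted p = 0.118). Atf4, whose protein activates Ddit3 and Ppp1r15a, had 116.0, 116.3 and 114.7 CPM in knockouts and 151.9, 119.8 and 157.5 CPM in controls (-0.31 ± 0.133, edgeR adjusted p = 0.219). The knockout libraries lay close together and all below the controls, of which replicate 2 was nearest. Eif2ak3, the sensor PERK, had 22.6 to 25.7 CPM in knockouts and 27.5 to 39.3 CPM in controls without overlap (-0.41 ± 0.162, edgeR adjusted p = 0.185).

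The further ATF4 targets were rare. The asparagine synthetase gene Asns had 33, 73 and 45 reads in knockout libraries and 59, 19 and 85 in control libraries (-0.81 ± 0.322, edgeR adjusted p = 0.191). Trib3, a pseudokinase induced by CHOP and ATF4, and Chac1, a glutathione-degrading enzyme, had 0 reads in control replicate 2. Elsewhere they had 46 to 105 and 23 to 40 reads per library, and their errors were too wide to show a difference (0.49 ± 0.668 and -0.21 ± 0.639). Of the 8 genes of this branch, 1 was lower (12.5%, against 1.56% of all genes) and 0 were higher over all genes, and the median was -0.26. At an unadjusted p under 0.05 in edgeR, 4 were lower (50%) and 1 was higher (12.5%), against 11.3% and 11.5% of all genes.

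In ER-associated degradation 0 of 7 tested genes passed edgeR's test. At an unadjusted p under 0.05, 2 were lower, Sel1l and Selenos (28.6%, against 11.3% of all genes). Sel1l, the adaptor of the Hrd1 ubiquitin ligase, had 107.9, 106.0 and 112.4 CPM in knockout libraries and 150.3, 160.9 and 139.9 CPM in control libraries. The groups lay well apart and the spread within each was small (108.8 ± 3.26 CPM against 150.4 ± 10.5 CPM, SD, n = 3 each), with a log2 fold change of -0.47 ± 0.11 (SE) and an edgeR adjusted p of 0.0644. Selenos, a selenoprotein that brings the ATPase p97 to the ER membrane, had 30.3, 27.5 and 32.9 CPM in knockouts and 45.8, 29.7 and 45.4 CPM in controls (-0.43 ± 0.181, edgeR adjusted p = 0.211), overlapping through control replicate 2. The ligase gene itself, Syvn1, varied most among the knockouts, with 67.8, 49.8 and 29.7 CPM in replicates 1 to 3 against 49.7 to 55.6 CPM in controls (-0.07 ± 0.273).

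Derl1, a channel component, had 105.8 to 112.9 CPM in knockouts and 115.7 to 134.8 CPM in controls (-0.23 ± 0.113), while its relative Derl2 had 36.8 to 38.7 CPM in knockouts and 32.3 to 36.4 CPM in controls (0.11 ± 0.11). Neither passed edgeR's test (adjusted p = 0.282 and 0.599). Edem1, which marks misfolded glycoproteins for removal (-0.13 ± 0.114), and Herpud1, a scaffold of the ligase complex induced by ER stress (0.15 ± 0.193), had overlapping groups. Sec61b, a subunit of the channel through which proteins enter the ER, had 25.4, 29.1 and 29.2 CPM in knockouts and 23.4, 18.9 and 24.3 CPM in controls (0.31 ± 0.144, edgeR adjusted p = 0.248), with the knockouts all higher.

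Summed over their genes, the chaperones reached 3157, 3022 and 3007 CPM in knockout libraries and 3556, 2725 and 3517 CPM in control libraries, so control replicate 2 was below the knockouts and the other controls above them. The PERK and ATF4 genes summed to 332.3, 320.1 and 313.7 CPM in knockouts and 385.5, 356.3 and 364.6 CPM in controls. The degradation genes summed to 512.4, 492.3 and 485.4 CPM in knockouts and 574.3, 522.4 and 585.6 CPM in controls. In these 2 arms the sums of the knockouts were all below those of the controls, at 87.3% and 88.6% of the control mean, against 93.7% for the chaperones with overlap. Gene by gene, all knockouts lay below all controls for 3 of 8 PERK and ATF4 genes (37.5%) and 2 of 7 tested degradation genes (28.6%), against 14.8% of all genes. They lay above for 1 gene in each arm (12.5% and 14.3%, against 16.9%). The sum of the 3 genes of the IRE1 and ATF6 branches was also lower in every knockout library. It was 150.6, 149.6 and 149.1 CPM in knockouts and 179.1, 183.9 and 162.7 CPM in controls (85.5%). Of these 3 genes only Ern1 was lower without overlap. The single translocon gene Sec61b was higher, at 126%. No test was made of these sums or of the difference between the arms.

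Without control replicate 2 the same fit called 420 of 16535 genes lower (2.54%) and 491 higher (2.97%), and among the 35 members, Derl3 now included, 7 were lower (20%) and 0 higher. They were Hspa5 (log2 fold change -0.98 ± 0.122 SE, edgeR adjusted p = 0.0197), Manf (-0.50 ± 0.0881, 0.0341), Selenos (-0.58 ± 0.111, 0.039), Atf4 (-0.41 ± 0.0814, 0.0429), Sel1l (-0.41 ± 0.0856, 0.0477), Ppp1r15a (-0.83 ± 0.176, 0.0489) and Ern1 (-0.50 ± 0.106, 0.0499). They came from each arm with more than 1 gene, 2 chaperone genes, 2 of the PERK and ATF4 branch, 2 of degradation and 1 of the IRE1 branch. Ern1 and Hyou1 were nearer to control without that library, and Hspa5, Manf, Atf4 and Selenos farther from it. With 2 control libraries left, the spread rests mainly on the knockouts. Without another library in turn edgeR called 0 members lower, except 1, Ppp1r15a, without control replicate 3 (0.742% of all genes). The share of all genes lower was 0.0362%, 0.0304% and 0.0849% without knockout replicates 1 to 3 and 0.0183% without control replicate 1.

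The number of members called lower moved with the method, as did that of all genes. DESeq2 called 4 members, Hspa5, Ppp1r15a, Sel1l and Ern1, beside 4.55% of all genes. Limma with quality weights, which gave control replicate 2 the lowest weight (0.436), added Selenos to these for 5 members, beside 5.66%. Limma-voom called Hspa5 and Ppp1r15a, beside 2.33%, as did edgeR with upper quartile scaling, beside 1.72%. Ppp1r15a alone was called with RLE size factors (1.59%), without robust estimation (1.43%) and with no filter on low counts (0.658%). No member was called with unscaled library totals (0.613%) or with replicate number as a block (0.062%).

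Ratios between 2 members within a library do not depend on how libraries are scaled to each other. The pairs were chosen after the values were seen and carry no test. The FPKM ratio of Hspa5 to Hsp90b1 was 0.413, 0.386 and 0.35 in knockout libraries and 0.597, 0.508 and 0.621 in control libraries. That of Ern1 to Atf6 was 0.351, 0.402 and 0.357 in knockouts and 0.589, 0.735 and 0.549 in controls. Ppp1r15a to Ppp1r15b, the inducible to the constitutive phosphatase subunit, stood at 0.458, 0.333 and 0.463 in knockouts and 0.897, 0.771 and 0.726 in controls. Ddit3 to Atf4 stood at 0.85, 0.642 and 0.63 in knockouts and 0.401, 0.347 and 0.363 in controls. In all 4 pairs control replicate 2 lay outside the knockout range. The choice of pairs favoured such separation, so nothing is supported by it.

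**Figure D4:**
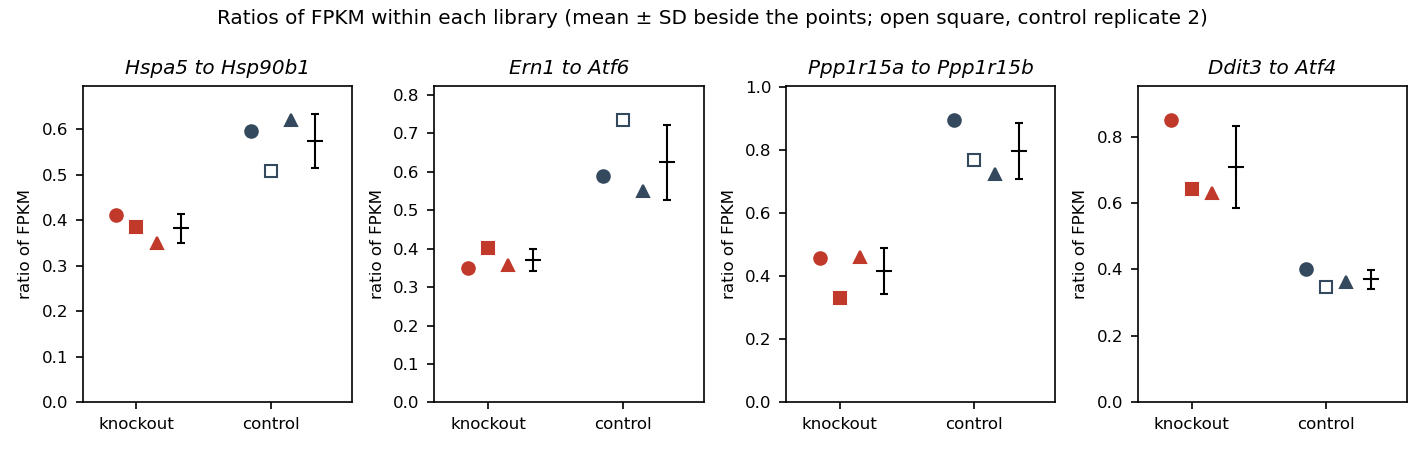
Ratio of the FPKM of 2 members within each library, knockout at the left and control at the right, with the mean ± SD beside the points (n = 3 each). The first 3 ratios are lower in every knockout library than in every control library, and the ratio of Ddit3 to Atf4 is higher (0.63 to 0.85 in knockouts, 0.347 to 0.401 in controls).

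Among 112 tested genes of the same pathways that are no members, 5 were higher and 1 was lower in edgeR over all genes, with a median of 0.07. These shares were 4.46% and 0.893%, against 1.9% and 1.56% of all tested genes. Of 22 other folding genes, Sil1, a second nucleotide exchange factor of BiP, fell to 22.0, 23.5 and 22.8 CPM in knockouts, against 41.1, 38.6 and 40.9 CPM in controls (-0.82 ± 0.111, edgeR adjusted p = 0.0202). The lumenal protein gene Erp29 rose to 99.96, 87.8 and 82.8 CPM in knockouts, against 65.2, 52.3 and 53.1 CPM in controls (0.66 ± 0.137, adjusted p = 0.0479 in edgeR). Of 11 genes of collagen folding 0 passed, 2 were higher and 1 lower at an unadjusted p under 0.05, and those with the smallest p were P3h3 (-0.53), P4ha2 (0.43) and Plod1 (0.37).

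Of 22 other degradation genes, Aup1, a lipid droplet protein that recruits a ubiquitin conjugating enzyme (0.79 ± 0.164, edgeR adjusted p = 0.0479), and Ube2j2, an ER-bound enzyme of that kind (0.72 ± 0.149, 0.048), rose. Of 31 other genes of the eIF2 alpha stress response, the glycyl-tRNA synthetase gene Gars rose (0.52 ± 0.101, edgeR adjusted p = 0.0417). In that list 8 were higher (25.8%) and 4 lower (12.9%) at an unadjusted p under 0.05, against 11.5% and 11.3% of all genes. Of 10 other sensors and factors, Nfya, the subunit of NF-Y that gives it sequence preference for the CCAAT part of the element printed above, rose to 81.1, 68.9 and 75.4 CPM in knockouts, against 50.1, 51.9 and 44.7 CPM in controls (0.62 ± 0.119, adjusted p = 0.0416 in edgeR). The genes of its partner subunits, Nfyb (-0.25) and Nfyc (-0.03), had overlapping groups and did not pass (edgeR adjusted p = 0.449 and 0.938). Of 16 genes of the translocon and signal peptidase 0 passed, and those with the smallest p were Sec11c (-0.45), Spcs3 (0.35) and Sec61a1 (0.39). At an unadjusted p under 0.05, 3 were higher (18.8%) and 2 lower (12.5%), against the same 11.5% and 11.3%. DESeq2 called 8 of the 112 higher and 6 lower, beside 4.68% and 4.55% of all genes. Without control replicate 2 edgeR called 6 higher and 4 lower (5.36% and 3.57%), beside 2.97% and 2.54% of all genes. Without knockout replicate 1, 2 or 3 or control replicate 1 it called 0 of them in either direction, and without control replicate 3 it called Ddit4 higher and Sil1 lower.

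**Figure D5:**
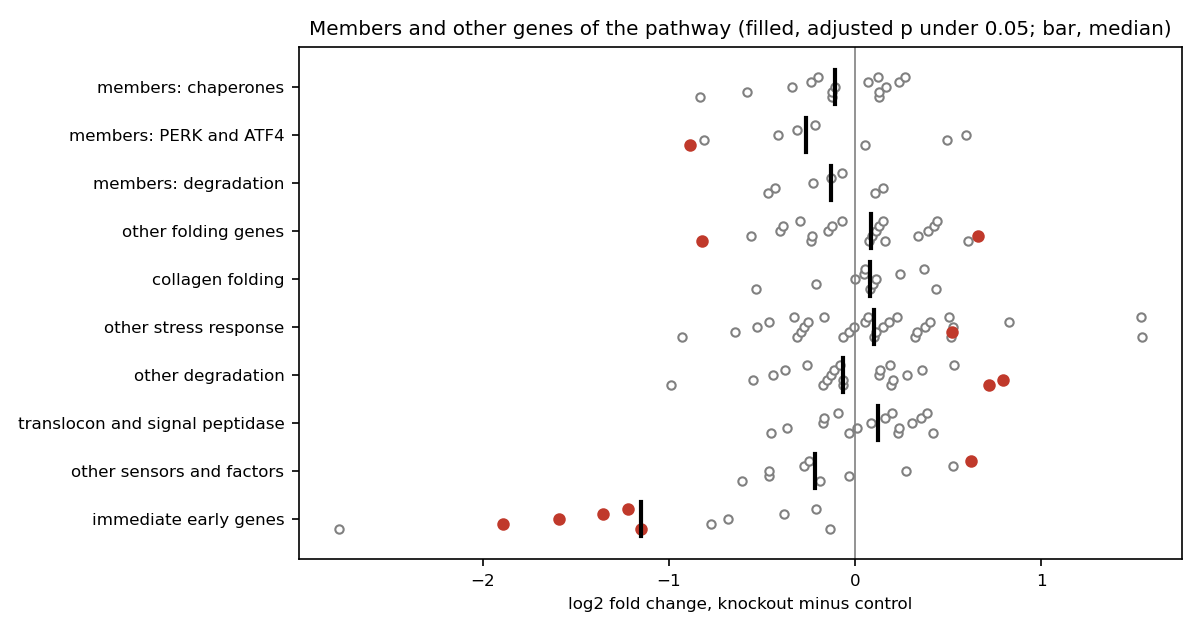
Log2 fold change, knockout minus control, of each tested gene in 3 arms of the members, 6 lists of other pathway genes and the immediate early list, with filled points for an edgeR adjusted p under 0.05 and a bar at the median. The immediate early genes lie lowest, with a median of -1.15, while the medians of the other lists run from -0.26 to 0.12.

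Immediate early genes, which respond to stimuli and handling within minutes, are given beside Ppp1r15a. Of 11 tested genes 5 were lower (45.5%, against 1.56% of all genes) and 0 higher in edgeR over all genes, with a median of -1.15. The 5 that fell were Egr1 (-1.89 ± 0.171, edgeR adjusted p = 0.00868), Fosb (-1.59), Nr4a1 (-1.35), Junb (-1.22) and Nr4a2 (-1.15). Ier3 (-0.21), Zfp36 (-0.14) and Dusp1 (-0.38) had overlapping groups. Of the 5 that fell, edgeR still called 4 without control replicate 2 or 3, 2 without knockout replicate 3, 1 without knockout replicate 2 and 0 without knockout replicate 1 or control replicate 1. Ppp1r15a is itself known as an early response gene. Summed, the list reached 543.4 to 758.2 CPM in knockouts and 1072 to 1296 CPM in controls. Its part in the results on Ppp1r15a and the other members was not tested.

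Among markers of cells with much ER, the B and plasma cell list had 1 of 4 tested genes higher, Sdc1, which other cells also express, while Jchain was at 0.425 to 1.82 CPM in knockouts and 0 to 1.17 CPM in controls and Mzb1 was below 0.1 CPM in every library. The list summed to 93.8 to 105.0 CPM in knockouts and 58.6 to 78.1 CPM in controls, of which Sdc1 alone held 75.0 to 83.0 CPM in knockouts and 41.5 to 54.0 CPM in controls. Ighm, the next highest, had 13.8 to 17.9 CPM in knockouts and 15.2 to 21.2 CPM in controls (-0.29). Fibroblast markers had 0 of 8 called and summed to 6151 to 6734 CPM in knockouts and 6256 to 8536 CPM in controls. Brown adipocyte markers had 3 of 7 lower (42.9%), Ucp1 (-2.45), Cox8b (-1.41) and Cox7a1 (-1.78), and summed to 158.5 to 210.6 CPM in knockouts and 288.5 to 416.0 CPM in controls. Of all tested genes 1.56% were called lower and 1.9% higher. White adipocyte markers had 0 of 7 called, at 873.7 to 1185 CPM in knockouts and 935.5 to 1345 CPM in controls. Smooth muscle markers had 1 of 8 lower, Tagln, at 23920 to 28370 CPM summed in knockouts and 28670 to 34830 CPM in controls. Endothelial, macrophage and Schwann cell markers had 0 of 7, 0 of 7 and 0 of 5 called, with medians of 0.44, 0.42 and 0.28. Endothelial markers summed to 640.3 to 1490 CPM in knockouts and 711.9 to 888.4 CPM in controls, macrophage markers to 238.5 to 294.7 and 116.4 to 339.9 CPM, and Schwann cell markers to 22.8 to 37.7 and 17.05 to 33.0 CPM. The part of these cells in the results on the members was not tested.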

How the data were processed

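The authors deposited 1 table with read counts and FPKM per gene for each of the 6 libraries, per the file headers. Counts are whole numbers, and FPKM divide by gene length and library total. Per the submitters' processing notes, CASAVA 1.8, HISAT2, SAMtools 1.3.1, edgeR and build GRCm39 were named, but all 35 members had the positions of the GENCODE M21 annotation of GRCm38, so positions are given as GRCm38. For the counting program and whether it used strand, the answer is not given in the sources used here. Of the members, 12 share exonic bases with another gene, 11 of them with an antisense gene, so their counts are less certain. Manf and Ppp1r15a are among them, as is Ddit3, which shares 68 exonic bases with Mars. Hspa5, Hyou1, Ern1, Atf4, Sel1l and Selenos are not.

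Counts were analysed in R 4.3.3 with edgeR 4.0.16: filterByExpr by group, TMM scaling, a robust quasi-likelihood F test of knockout against control with no covariate, and Benjamini-Hochberg adjustment over all 16139 tested genes at 0.05. The SE was obtained from each estimate and its F statistic. CPM use TMM library sizes, and FPKM serve for levels between genes and for ratios. Alternatives used DESeq2 1.42.0 and limma 3.58.1. The steps were tested on simulated counts. Libraries of a group differed far beyond counting error (mean chi-square per gene 15.5 to 142), so none was taken for a copy. The labels do not say that libraries came from separate mice, so p-values measure the spread between libraries, which may be in part technical.

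All 35 members were accounted for. Of each list of other pathway genes and of the immediate early list, genes past the threshold, or else the 3 with the smallest p, were named, with Ogt. The members and lists were chosen with earlier results of these data known, so no p is given for a list. Genes named outside this rule (Acta2, Tagln, Sdc1, Jchain, Mzb1, Ighm, Ucp1, Cox8b, Cox7a1, Ier3, Zfp36, Dusp1, Ddit4, Psat1, Phgdh, Aars, Shmt2, Nfyb, Nfyc, Creb3, Creb3l1, Creb3l2, Atf6b, Svip) were chosen after their values were seen.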

Additional observations from a re-analysis of the deposited data

How the results depend on the processing

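Of the 15 alternatives tried, each kept 0 members higher. Members called lower numbered 1 with all libraries, 2 with upper quartile scaling, 0 with unscaled library totals, 4 in DESeq2, 2 in limma-voom, 5 in limma with quality weights, and 0 to 7 when 1 library was left out. Other pathway genes were 5 higher and 1 lower, against 0 higher with library totals, 3 higher without robust estimation, 8 higher and 6 lower in DESeq2, 2 lower in limma-voom, 10 higher and 8 lower with quality weights, and 0 to 6 higher and 0 to 4 lower with 1 library left out. All genes were 306 higher and 251 lower, against 94 and 99 with library totals, 755 and 735 in DESeq2, 870 and 914 with quality weights, and 4 to 491 and 3 to 420 with 1 library left out. With 1 library left out, the median log2 fold change ran from -0.345 to -0.12 in the PERK and ATF4 arm, from -0.214 to -0.0796 in degradation, from -0.384 to -0.163 in the IRE1 and ATF6 arm, and from -0.172 to 0.0489 among chaperones.

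The labels do not say that the replicate numbers pair the libraries. Same-numbered libraries correlated at 0.0524, 0.0856 and -0.0601 in their deviations from the group means, and knockout replicate 1 correlated best with control replicate 3. With 3 libraries per group, correlations this weak cannot decide whether the numbers pair them. With replicate number as a block (replicate block) edgeR called 18 genes higher and 10 lower, 0 members, and 0 other pathway genes in either direction, and the PERK and ATF4 median was -0.14. Chac1 was at 0.0193 under that block.

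Members near 0 changed sign, none of them called. Pdia4 was at -0.00973 with quality weights. With 1 library left out, Sdf2l1 ran from -0.0407 to 0.274, Syvn1 from -0.365 to 0.194, Dnajb9 from -0.279 to 0.0489, Calr from -0.0191 to 0.235, Pdia4 from -0.0284 to 0.131, Dnajb11 from -0.0226 to 0.244, Herpud1 from -0.0164 to 0.345, Ppp1r15b from -0.00533 to 0.133 and Chac1 from -0.556 to 0.325. The cause of these changes was not tested. Control replicate 2, with 3038782 counts, limits the rare members. Derl3 did not pass the filter with all libraries, and was at -0.586 ± 0.792 (SE) without it (edgeR adjusted p = 0.685).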

Other observations

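Some genes of the stress response lists had groups that did not overlap without passing edgeR's test over all genes. Groups did not overlap for 31.8% of all tested genes. The choice of these genes was made with their values in view. Ddit4, an inhibitor of mTORC1 signalling that ATF4 can induce, had 84.0, 101.9 and 88.9 CPM in knockout libraries and 14.4, 29.7 and 50.3 CPM in control libraries (log2 fold change 1.54 ± 0.416 SE, edgeR adjusted p = 0.0951). Psat1, an enzyme of serine synthesis and a known ATF4 target, had 10.8, 12.5 and 13.5 CPM in knockouts and 6.46, 5.93 and 8.0 CPM in controls (0.83 ± 0.187, 0.0581). Both passed in DESeq2 and in limma with quality weights. Other genes of the same list lay lower, with Phgdh at -0.46, Aars at -0.33 and Shmt2 at -0.29, each with the knockouts all below the controls (edgeR adjusted p 0.167 to 0.246). These examples do not show the balance of the list. Of its 31 tested genes 8 had the knockouts all above the controls (25.8%, against 16.9% of all genes) and 4 all below (12.9%, against 14.8%).

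Of 4 relatives of ATF6 in the lists, Creb3 lay higher and Creb3l1 (-0.46), Creb3l2 and Atf6b (-0.27) lay lower, each without overlap between the groups, and 0 passed edgeR's test with all libraries. DESeq2 called Creb3 and Creb3l2, and before adjustment all 4 were below 0.05 in edgeR. Of all tested genes, 31.8% had groups without overlap and 22.7% were below 0.05 before adjustment. Creb3 had 70.8, 70.2 and 69.7 CPM in knockouts and 53.5, 41.9 and 50.1 CPM in controls (0.53 ± 0.122, edgeR adjusted p = 0.0616). Creb3l2, which serves secretory trafficking, had 212.2, 200.9 and 241.4 CPM in knockouts and 357.0, 372.6 and 267.3 CPM in controls (-0.61 ± 0.16, edgeR adjusted p = 0.0801). Svip, a small inhibitor of ER-associated degradation, had 5.70, 7.18 and 8.29 CPM in knockouts and 16.6, 10.0 and 14.6 CPM in controls (-0.99 ± 0.233, edgeR adjusted p = 0.064).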
